A study of Mus musculus with 12 samples.

Results

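The count rows of mouse serum RNA named Mmgt2, Cyth2, Man1a2, Itga2b and Zfp60 are described here, 5 of the 53546 rows in each library. They were picked by name, with these data in view, as abundant rows that may hold reads of another gene expressed in red cells. This could occur if reads aligned to a genome build were counted at the positions of a different build. The paired genes are Ubb for Mmgt2, Ftl1 for Cyth2, Tent5c for Man1a2, Slc4a1 for Itga2b and Blvrb for Zfp60. The levels of the 5 rows are therefore a description and not a finding. The fall of Itga2b and Zfp60 in colorectal cancer was also known when the rows were chosen. It is not established that a row measures the gene of its name, and "the Mmgt2 row" below means the counts listed under that name.

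Total RNA was sequenced from serum of normal mice and of mice with colorectal cancer, 6 samples of each by the labels, which make 2 groups. The labels give disease state and tissue, and no strain, age, sex, tumour model or treatment. Colorectal cancer replicates 5 and 6 held identical counts under the same column header, which names replicate 6, and they were counted once as replicate 6. That left 6 normal and 5 colorectal cancer libraries. Library totals lay between 2889205 and 20774889 counts. A single row, Olfr648, held over 1000000 counts in 6 libraries, 2 normal and 4 colorectal cancer, and without it totals ran from 2885958 to 7033966. The labels call the samples biological replicates.

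The 5 names belong to unrelated proteins. Mmgt2 encodes a membrane protein of the secretory pathway that is linked to magnesium transport. Cyth2 encodes cytohesin-2, an exchange factor that activates Arf GTPases, and Man1a2 a Golgi mannosidase that trims N-glycans. Itga2b encodes the alpha chain of the platelet fibrinogen receptor and marks megakaryocytes and platelets, and Zfp60 encodes a zinc finger protein. The paired genes were chosen as possible transcripts of the late red cell, which discards its nucleus and organelles and keeps a small set of abundant RNAs. Not all of them are particular to red cells. Ubb encodes polyubiquitin, Ftl1 the light chain of the iron store ferritin, and Slc4a1 band 3, the anion exchanger that anchors the red cell skeleton. Blvrb encodes biliverdin reductase B, an enzyme abundant in red cells, and Tent5c a non-canonical poly(A) polymerase.

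The genes of a pair are unlike in sequence, and the first 60 coding bases of the 2 pairs on chromosome 11 are shown for this. The letters come from the GENCODE M21 transcripts of mouse build mm10, run 5′ to 3′, and carry the start codon in capitals.
Mmgt2: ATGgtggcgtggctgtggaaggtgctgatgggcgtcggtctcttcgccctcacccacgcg
Ubb: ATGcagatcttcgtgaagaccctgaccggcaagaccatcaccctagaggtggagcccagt
Itga2b: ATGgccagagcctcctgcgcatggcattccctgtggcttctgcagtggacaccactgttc
Slc4a1: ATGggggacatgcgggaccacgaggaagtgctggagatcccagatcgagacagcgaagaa
In each of the 5 pairs the annotated transcripts of the row's gene and of its paired gene shared 0 stretches of 25 bases, on either strand. Mmgt2 had 4942 such stretches and Ubb 1212, and Itga2b had 5597 and Slc4a1 4884.

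In the annotation the Mmgt2 gene lies on chromosome 11 from 62648664 to 62666354 on the plus strand, and Ubb at chr11:62551171-62553213 on the same strand. Cyth2 lies on chromosome 7 from 45806637 to 45814581 on the minus strand, with Ftl1 from 45457944 to 45459884. Man1a2 spans chromosome 3 from 100562208 to 100685503 on the minus strand, and Tent5c 100451628 to 100489324. Itga2b lies on chromosome 11 from 102453297 to 102470122 on the minus strand, and Slc4a1 from 102348824 to 102366203. Zfp60 lies on chromosome 7 from 27731389 to 27753702 on the plus strand, and Blvrb from 27447978 to 27466144. All 10 are annotated as protein-coding, and each value below sums a whole gene, so exons and UTRs were not told apart. In all 5 pairs the paired gene lay at lower positions than the row's gene, on the same strand, and the 2 did not overlap.

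The mean scaled level of each row was lower in the colorectal cancer libraries than in the normal ones, and 4 of the 5 rows were called lower. The plot of levels by library shows the 5 rows side by side. The Mmgt2 row fell 3.0-fold, Cyth2 2.51-fold, Itga2b 2.31-fold and Zfp60 3.61-fold, and Man1a2, 2.28-fold lower, did not pass. Of 9565 tested rows, 139 were called lower, which is 1.45%, and 193 in either direction, which is 2.02% (edgeR, quasi-likelihood test, adjusted after Benjamini and Hochberg, threshold 0.05). The median log2 fold change over all tested rows was 0.04. Since 2 of these falls were known when the rows were chosen, the count of 4 is given beside that share and nothing is read from it.

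**Figure D1:**
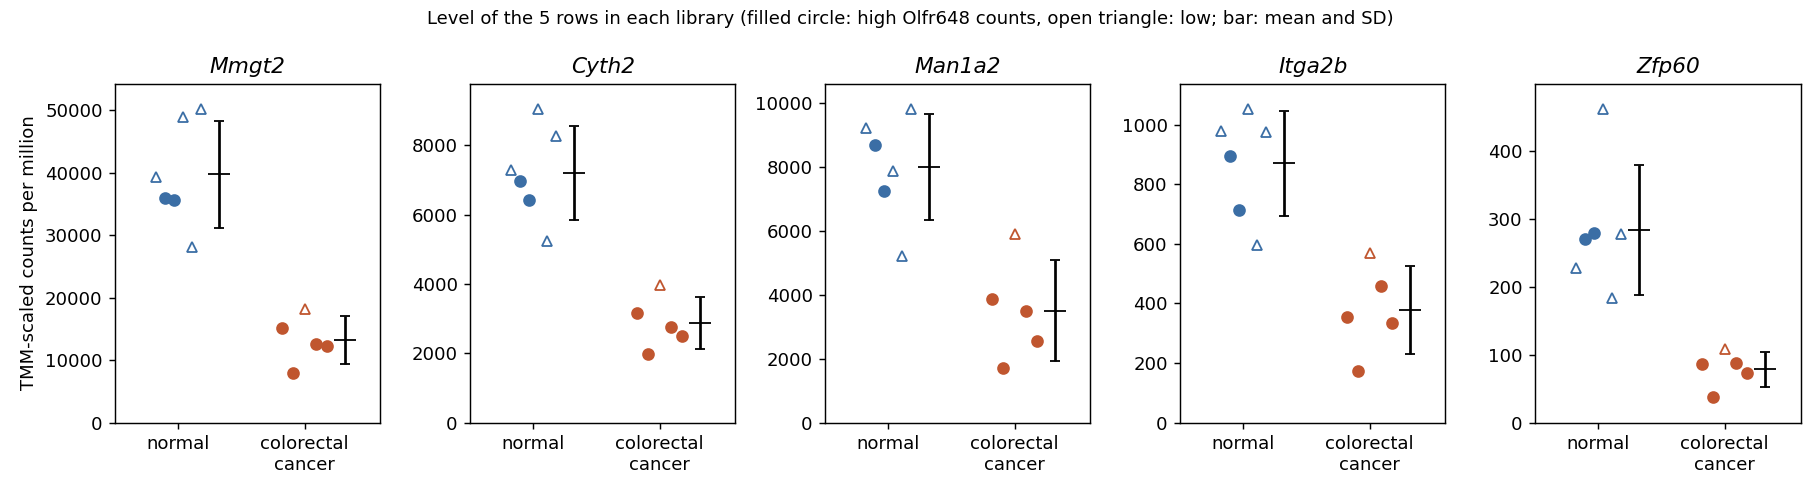
TMM-scaled CPM (vertical axes, each from 0) of the 5 rows in 6 normal and 5 colorectal cancer libraries; each point is a library (filled circle with over 1000000 Olfr648 counts, open triangle with fewer), and the bar gives the mean and SD of its group. In Mmgt2, Cyth2, Itga2b and Zfp60 every colorectal cancer point lies below every normal point, and in Man1a2 1 colorectal cancer library lies above the lowest normal one.

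The Mmgt2 row was the most abundant of the 5. It held 205190 to 251222 counts in the normal libraries and 131571 to 173102 in colorectal cancer. It ranked between the second and the fifth highest row of every library. Scaled to library size with TMM factors, it stood at 28165 CPM (counts per 1000000 counts) in the lowest normal library, 37702 at the median and 50275 in the highest. In colorectal cancer replicates 1, 2, 3, 4 and 6 it stood at 15170, 7878, 18234, 12628 and 12235 CPM. All 5 colorectal cancer libraries were below all 6 normal ones. The group means were 39748 ± 8499 CPM (SD, n = 6) and 13229 ± 3834 (SD, n = 5), a log2 fold change of -1.59 (SE 0.21, adjusted p = 0.00513, edgeR).

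The Cyth2 row followed the same order of libraries closely. It stood at 5236, 7124 and 9058 CPM in the lowest, median and highest normal library. In colorectal cancer replicates 1, 2, 3, 4 and 6 it stood at 3151, 1967, 3964, 2773 and 2511 CPM. The groups did not overlap, and replicate 2 was the lowest and replicate 3 the highest in colorectal cancer, as in the Mmgt2 row. The log2 fold change was -1.33 (SE 0.18, adjusted p = 0.00513, edgeR).

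The Man1a2 row varied most between colorectal cancer libraries among the 5 rows, with a coefficient of variation of 45.2% against 20.7% in normal serum. It stood at 5209, 8281 and 9820 CPM in the lowest, median and highest normal library. In colorectal cancer replicates 1, 2, 3, 4 and 6 it stood at 3879, 1717, 5907, 3489 and 2543 CPM. Colorectal cancer replicate 3 was above normal replicate 5, so the groups overlapped by these libraries. The log2 fold change of -1.19 (SE 0.28) did not pass (adjusted p = 0.0556, edgeR). Without colorectal cancer replicate 3 it was -1.46 and passed (adjusted p = 0.0107, edgeR), and without normal replicate 5 it was -1.29 (adjusted p = 0.0429, edgeR).

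The Itga2b row, named for the platelet integrin chain, held fewer counts, 4516 to 5608 in normal libraries and 2909 to 5993 in colorectal cancer, which overlap before scaling. It stood at 597, 936 and 1053 CPM in the lowest, median and highest normal library. In colorectal cancer replicates 1, 2, 3, 4 and 6 it stood at 353, 174, 568, 457 and 333 CPM. The groups did not overlap, though colorectal cancer replicate 3 at 568 CPM came close to normal replicate 5 at 597. The log2 fold change was -1.21 (SE 0.26, adjusted p = 0.0375, edgeR). The call ended when any 1 of normal replicates 1, 2, 4 and 6 and colorectal cancer replicates 1, 4 and 6 was left out, with adjusted p from 0.0624 to 0.108 (edgeR).

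The Zfp60 row was the least abundant and had the largest fold of the 5. It stood at 183, 275 and 463 CPM in the lowest, median and highest normal library. In colorectal cancer replicates 1, 2, 3, 4 and 6 it stood at 86.0, 37.3, 108.2, 88.0 and 73.6 CPM. The groups did not overlap, and normal replicate 4 stood apart above the other normal libraries. The log2 fold change was -1.85 (SE 0.28, adjusted p = 0.00707, edgeR). Over all 9565 tested rows, 2.10% had every colorectal cancer library below every normal library, as these 4 rows did.

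Levels of different genes were compared per kilobase of annotated exon. In normal serum the Mmgt2 row held 8115 ± 1735 CPM per kilobase, Cyth2 2091 ± 392, Man1a2 1005 ± 208, Itga2b 159 ± 32.4 and Zfp60 33.9 ± 11.4 (SD, n = 6). These levels per kilobase were in the same order in colorectal cancer, at 2701 ± 783, 834 ± 217, 440 ± 199, 69.2 ± 27.0 and 9.37 ± 3.13 (SD, n = 5). Neighbours in this order differed by more than either of their SDs, in both groups. Together the 5 rows made up 7.79% to 11.7% of all counts but those of Olfr648 in normal libraries, and 2.80% to 6.15% in colorectal cancer. In bulk serum RNA the source of a lower level, such as fewer cells of a type or less RNA per cell, cannot be told.

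The rows of the paired symbols held almost nothing, apart from Blvrb. Summed over the 11 libraries, Ubb had 4 counts, Ftl1 31, Tent5c 0 and Slc4a1 3, against 2151687 in the Mmgt2 row, 419795 in Cyth2, 476207 in Man1a2 and 51982 in Itga2b. A sum of 0 allows up to 0.025 CPM for Tent5c (3 counts of 119956737, counting error only). All 4 Ubb counts came from normal replicate 3, and all 3 Slc4a1 counts from colorectal cancer replicate 2. Ftl1 had 0 to 6 counts per library in both groups. Ubb and Ftl1 thus read near 0 in serum RNA, while the rows named Mmgt2 and Cyth2 were among the highest.

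Blvrb was the exception among the paired symbols, with 186 to 493 counts in normal libraries and 477 to 859 in colorectal cancer. On the scaled level it stood at 54.7 ± 10.8 CPM in normal serum (SD, n = 6) and 55.2 ± 5.09 in colorectal cancer (SD, n = 5). The groups overlapped, and the log2 fold change was 0.01 (SE 0.14, adjusted p = 0.992, edgeR). So the Zfp60 row and the row of its paired symbol differed in their response, at log2 fold changes of -1.85 and 0.01, a difference that was not itself tested.

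**Figure D2:**
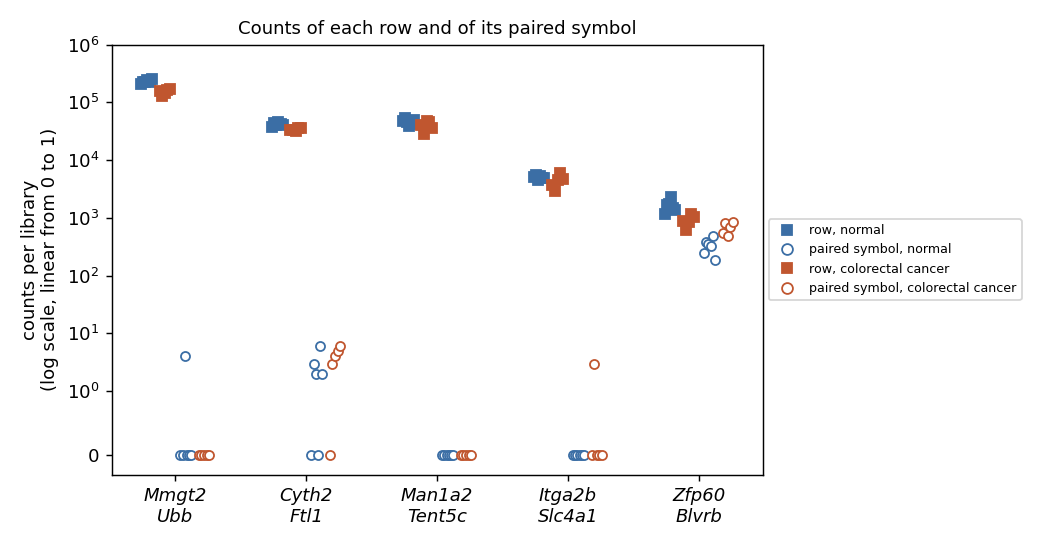
Counts per library (vertical axis, log scale that is linear from 0 to 1) of each of the 5 rows (filled squares) and of the row of its paired symbol (open circles), in 6 normal and 5 colorectal cancer libraries. Ubb, Ftl1, Tent5c and Slc4a1 lie between 0 and 6 counts in every library, while Blvrb lies between 186 and 859.

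Most rows around the 5 were far lower, with Gm11627 near Itga2b as an exception. Of the 3 nearest protein-coding rows on each side of each row, 30 in all, 6 were at 0 in every library and the median of their mean levels was 1.62 CPM. None of the 17 tested neighbours passed. The 6 neighbours of Mmgt2, which include Ubb, had mean levels from 0.026 to 12.5 CPM, beside 27694 CPM in the Mmgt2 row. Around Man1a2, 5 of 6 neighbours were at 0 throughout, Tent5c among them. Of Wdr3, the sixth, the sum over the libraries was 1 count. The highest of the 30 was Gm11627, the second row beyond Itga2b, at 495 ± 138 CPM in normal serum (SD, n = 6) and 332 ± 141 in colorectal cancer (SD, n = 5), with a log2 fold change of -0.58 (adjusted p = 0.477, edgeR). Over all libraries it averaged 420.6 CPM, below the 646 CPM of Itga2b and above the 191 CPM of Zfp60.

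The distance from each row to its paired gene was measured on the annotation, because positions shifted by a fixed distance would put one gene's reads in another gene's row. Moving the Mmgt2 exons 109540 bases towards lower positions laid them over all 1675 exon bases of Ubb. The largest overlaps were 1011 of 1340 exon bases of Ftl1 for Cyth2 at 348646 bases, and 5409 of 6097 of Tent5c for Man1a2 at 94277. They were 2281 of 4891 of Slc4a1 for Itga2b at 106987 bases, and 1877 of 2782 of Blvrb for Zfp60 at 292979. Each distance was picked for its overlap, so these overlaps are a description.

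Pairs on the same chromosome can be set side by side. Distances from 108977 to 109556 bases, which put at least 99% of the Ubb exon bases under the Mmgt2 row, put 900 to 1332 exon bases of Slc4a1 under the Itga2b row, also on chromosome 11. On chromosome 7 the overlapping distances were 346753 to 356637 bases for Cyth2 and 265245 to 305724 for Zfp60, with none in common. Whether a shift between builds keeps the same distance along a chromosome was not tested, since no later build was used. Nothing is therefore read from a distance that is shared or not shared. The distance of 109540 bases was picked for Mmgt2 over Ubb, and 900 bases is the lowest Itga2b overlap given above. The Mmgt2 and Itga2b rows, both with means over 100 CPM, therefore meet both limits by choice. The shares that follow are a description. Of 1607 protein-coding rows of chromosome 11, moved by 109540 bases, 40.0% met an exon base of some gene on the same strand and 6.78% met at least 900. Among the 36 rows with a mean of 100 CPM or more these shares were 75% and 38.9%, and among 545 rows at 0 in all libraries 26.4% and 2.94%. Annotated exon lengths differed between these sets, with medians of 4122 and 2420 bases, and their part in the shares was not tested.

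**Figure D3:**
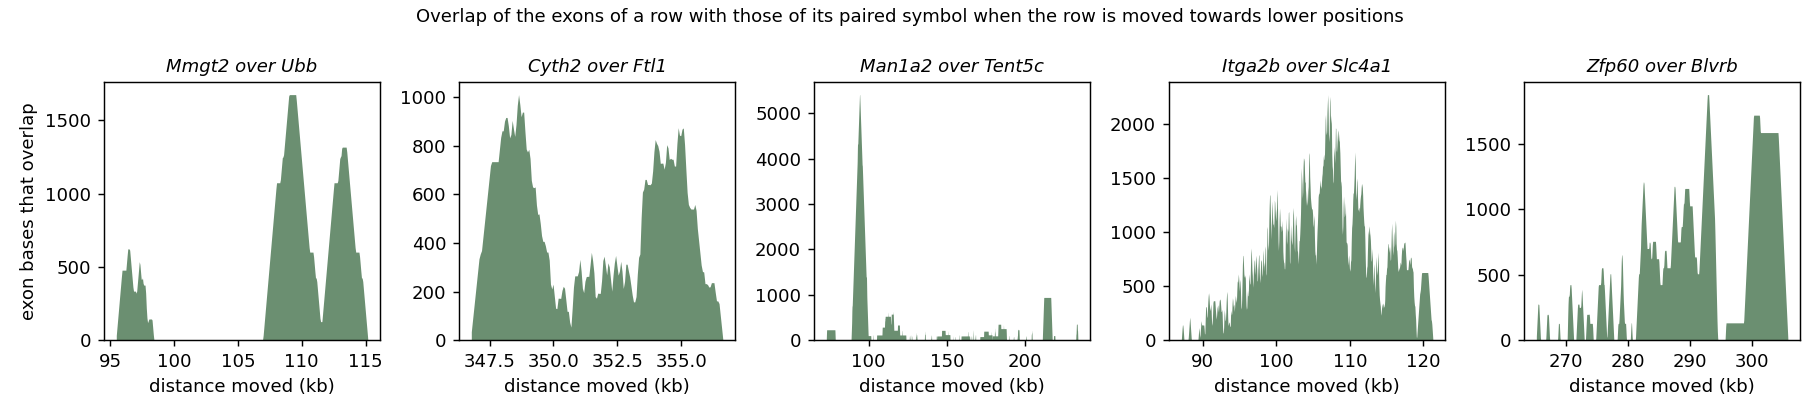
Exon bases of the paired symbol covered by the exons of each row (vertical axes) when the row is moved towards lower positions by the distance on the horizontal axis, in kilobases. Mmgt2 covers all 1675 exon bases of Ubb at 109540 bases, and Itga2b covers at most 2281 exon bases of Slc4a1, at 106987 bases.

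Moved by the distance of their own pair, other rows met other genes. The Ubb, Ftl1, Tent5c and Slc4a1 rows, moved with their pairs, met 0 exon bases of any gene on the same strand. The Blvrb row met 605 exon bases of Cyp2t4. The Gm11627 row, moved by the 106987 bases of the Itga2b pair, met 523 exon bases of Itga2b. Dhdh, which lies near Ftl1 and is named after its values were seen, encodes a dihydrodiol dehydrogenase. The Dhdh row, moved with the Cyth2 pair, met exons of Rpl13a, a ribosomal protein gene. It stood at 1904 ± 148 CPM in normal serum (SD, n = 6) and 1895 ± 216 in colorectal cancer (SD, n = 5), with a log2 fold change of -0.01 (adjusted p = 0.993, edgeR). Whether any row holds reads of the gene it meets was not tested. The submitters' processing notes name the build mm10, and no annotation for the counting step was given in the sources used here.

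Ratios of 2 rows within a library are free of library scaling, and 3 of the 10 possible ratios differed between groups. All 10 ratios were compared between groups by two-sided exact permutation, with 462 splits and adjustment over the 10, a test chosen after the data were seen. The Mmgt2 to Cyth2 ratio was 5.17 to 6.09 in normal libraries and 4.0 to 4.87 in colorectal cancer, with no overlap (exact permutation p = 0.00216, adjusted p = 0.0216). Relative to Zfp60, the Cyth2 row was higher in colorectal cancer, at a median ratio of 36.6 against 27.1 (exact permutation p = 0.00649, adjusted p = 0.0216). The Itga2b to Zfp60 ratio had medians of 4.67 and 3.28 with the same p-values, and in both ratios 1 normal library overlapped the colorectal cancer range. The 3 calls were lost without 5, 8 and 9 single libraries of the 11, in the order given, with adjusted p up to 0.0529, 0.0714 and 0.0794 (exact permutation). With 1 library left out the test has fewer splits and cannot reach as small a p. A lost call alone therefore does not show a weaker difference.

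The other 7 ratios did not pass. The Man1a2 to Itga2b ratio was 7.48 to 10.1 in normal libraries and 7.63 to 11 in colorectal cancer, and its mean log2 difference was -0.0018 (exact permutation p = 0.985, adjusted p = 0.985). The Cyth2 to Man1a2 and Cyth2 to Itga2b ratios had mean log2 differences of -0.06 each (both adjusted p = 0.774, exact permutation). Man1a2 relative to Zfp60 had a mean log2 difference of 0.59 (exact permutation p = 0.0216, adjusted p = 0.0541).

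**Figure D4:**
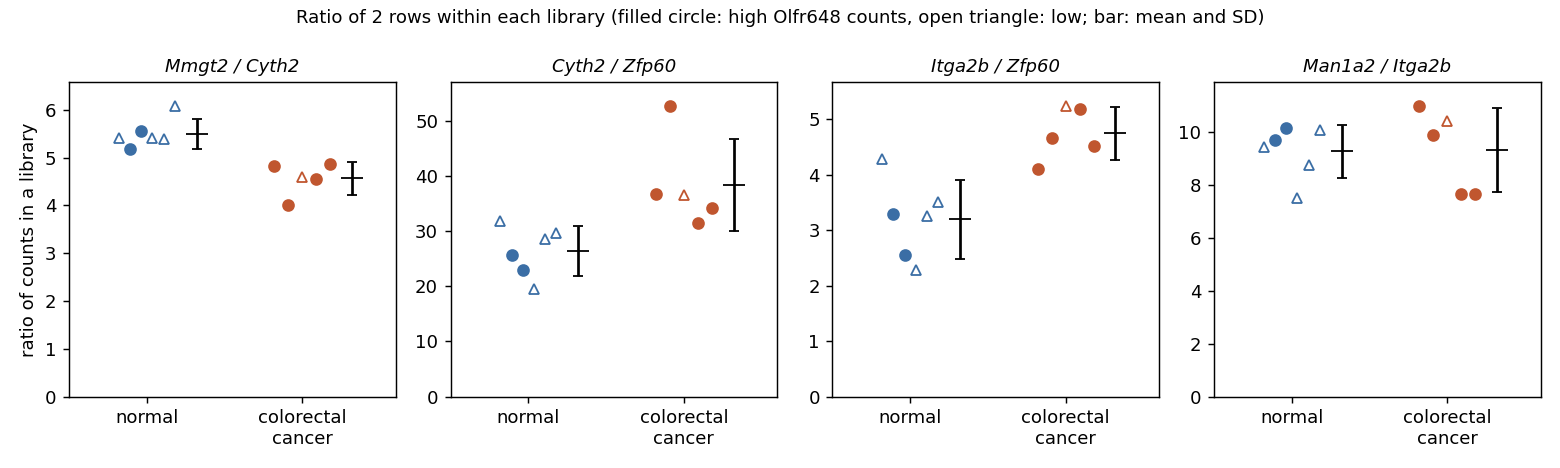
Ratio of the counts of 2 rows within each library (vertical axes, each from 0) for 4 of the 10 ratios, in 6 normal and 5 colorectal cancer libraries (filled circles with over 1000000 Olfr648 counts, open triangles with fewer); the bar gives the mean and SD. The Mmgt2 to Cyth2 ratio does not overlap between groups, and the Man1a2 to Itga2b ratio covers nearly the same range in both.

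Rows most like each of the 5 were sought among 587 tested rows with a mean of at least 100 CPM, by Pearson's r of log2(CPM + 1) over the 11 libraries. These values include the difference between groups and are a description. The row most like Mmgt2 was Cyth2 (r = 0.996; 0.971 over the 6 normal libraries alone), followed by Ccdc71 and Unc119b. Those most like Cyth2 were 4933404O12Rik, Ccdc15 and then Mmgt2. Prcd, Rundc1 and Cygb came nearest to Man1a2 (r = 0.992 to 0.994), and Rnf144a, Nthl1 and F930017D23Rik to Itga2b (r = 0.978 to 0.989). Plaat3, Tmod1 and Gm8868 were the nearest to Zfp60 (r = 0.984 to 0.986). Tmod1 encodes tropomodulin-1, a capping protein of actin filaments in red cells, and is on the red cell list below. All of these rows were lower in colorectal cancer and passed the test, with log2 fold changes from -1.98 to -1.12.

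Of 58 rows on the red cell list, 19 were tested, 4 fell and none rose, where 1.45% of all tested rows were called lower, and the list was chosen with earlier results known. The median log2 fold change of the tested rows was -0.09 beside 0.04 over all rows. The 4 were Hemgn, Tmod1, Tspan33 and Dcaf12, with log2 fold changes of -1.74, -1.68, -1.54 and -1.52, inside the range of the 5 rows, -1.85 to -1.19. Dcaf12, a substrate receptor of a ubiquitin ligase, was the highest of the list at 4029 ± 828 CPM in normal serum (SD, n = 6) and 1401 ± 613 in colorectal cancer (SD, n = 5). Tmod1 lost its call without colorectal cancer replicate 1, 4 or 6 (highest adjusted p = 0.0617, edgeR) and with the Olfr648 division as a covariate (adjusted p = 0.0744, edgeR). In the high-Olfr648 libraries alone Tmod1, Hemgn and Tspan33 did not pass (adjusted p = 0.225, 0.131 and 0.15, edgeR). With no filter on low counts Dcaf12 and Tmod1 did not pass (adjusted p = 0.0612 and 0.0815, edgeR). Defining red cell genes were among the 26 rows at 0 throughout, such as Hbb-bs, Hbb-bt and Alas2. The summed level of the red cell list was 3263 to 5984 CPM in normal libraries and 1083 to 2879 in colorectal cancer. Most of that sum was Dcaf12, and its part in the fall of the 5 rows was not tested.

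Among the platelet rows the Itga2b row alone passed the test, and whether it differed from the others was not tested. On the platelet and megakaryocyte list of 24 rows, 6 were tested and 1 fell, Itga2b itself. Over all tested rows 1.45% were called lower. Log2 fold changes were below 0 in 5 of the 6, with a median of -0.66 beside 0.04 over all rows. Pf4, Ppbp, Gp1ba, Gp5, Gp9 and Tubb1, defining genes of the lineage, were at 0 in all libraries, and Itgb3, which encodes the partner chain of Itga2b, had a mean of 0.837 CPM. Gng11 and Gp6, the other abundant rows of the list, had log2 fold changes of -0.63 (adjusted p = 0.0983, edgeR) and -0.69 (adjusted p = 0.149, edgeR). Without Itga2b the list summed to 3130 to 5118 CPM in normal libraries and 1681 to 2798 in colorectal cancer. Of 18 integrin alpha chain rows, 11 were tested and Itga2b alone fell; Itga10, the next most abundant, stood at 169 ± 27.2 and 181 ± 21.1 CPM (adjusted p = 0.885, edgeR).

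Relatives of the other named genes were low. The share of all tested rows called lower was 1.45%. Of 4 cytohesins, 3 were tested and 1 fell, Cyth2; Cyth4, the cytohesin of blood cells, stood at 104 ± 17.9 CPM in normal serum (SD, n = 6) and 68.2 ± 24.7 in colorectal cancer (SD, n = 5; adjusted p = 0.194, edgeR). Of 9 Golgi and ER mannosidases, 5 were tested and none passed, with Man1b1 at 72.9 ± 6.84 and 53.1 ± 7.28 CPM (adjusted p = 0.0549, edgeR). Of 11 rows of the ER membrane protein complex and its MMGT subunits, 4 were tested and 1 fell, Mmgt2. Mmgt1, its close relative, was at 0 throughout, and Emc1, a large subunit of the complex, stood at 17.5 ± 3.29 and 19.0 ± 3.29 CPM (adjusted p = 0.902, edgeR).

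No relative of the paired genes passed the test. Of the ubiquitin genes, Rps27a, the only one tested, had 79 counts in all and did not pass (adjusted p = 0.841, edgeR). Of 9 ferritin and iron storage rows 1 was tested, Ftmt, at 0.934 CPM, followed by the iron transporter Slc11a2 at 0.49, and Fth1, the ferritin heavy chain, was at 0. All 4 TENT5 rows were at 0. Of 10 SLC4 transporters 4 were tested and none passed; Slc4a3 and Slc4a8 led at mean levels of 75.2 and 44.7 CPM. Of the 4 heme breakdown rows, Blvrb and Hmox2 were tested and neither passed.

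Rows of other blood cells moved in both directions beside these falls. Over all tested rows 1.45% were called lower and 2.02% in either direction. Of 5 tested T cell rows 1 fell, Cd3e, part of the CD3 complex of T cells, from 375 ± 71 to 194 ± 47.0 CPM (SD, n = 6 and 5). None of 7 tested B cell rows passed, with Pax5 at 721 ± 145 and 713 ± 37.7 CPM and Cd72 at 273 ± 38.5 and 253 ± 42.6. Of 4 tested neutrophil rows 1 rose, Mxd1, by 1.61 on the log2 scale, and of 3 tested monocyte rows 1 rose, Adgre4, by 0.60. Of these 2, Mxd1 lost its call without any of 7 single libraries and Adgre4 without any of 9, with adjusted p up to 0.115 in both (edgeR). The summed neutrophil list was 111 to 406 CPM in normal libraries and 444 to 760 in colorectal cancer. Most of it was Mmp8, at 205 ± 119 and 556 ± 119 CPM, which did not pass (adjusted p = 0.133, edgeR), while the list's defining genes S100a8, S100a9, Csf3r and Ly6g were at 0. The T cell list summed to 804 to 1011 and 476 to 688 CPM, the monocyte list to 17.9 to 27.5 and 28.8 to 38.0, and the B cell list to 963 to 1477 and 1083 to 1195. Their part in the levels of the 5 rows was not tested.

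The libraries with high and low Olfr648 counts divide unevenly between the groups, so values within each division are given. Among the 6 high libraries the Mmgt2 row stood at 35837 ± 255 CPM (SD, n = 2 normal) and 11978 ± 3027 (SD, n = 4 colorectal cancer). Among the 5 low libraries it stood at 41704 ± 10250 CPM (SD, n = 4 normal) and 18234 in the single colorectal cancer library, replicate 3. That library was the highest of its group in all 5 rows. Within the high libraries alone the log2 fold changes were -1.58 for Mmgt2 (adjusted p = 0.0446, edgeR), -1.36 for Cyth2 (adjusted p = 0.0237, edgeR) and -1.95 for Zfp60, which no longer passed (adjusted p = 0.0716, edgeR). Those of Man1a2 and Itga2b were -1.45 (adjusted p = 0.15, edgeR) and -1.29 (adjusted p = 0.244, edgeR).

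The size of the fall also depended on how libraries were scaled. When Olfr648 was dropped and only library totals were used for scaling, the median over all rows went from 0.04 to 0.42 on the log2 scale. The 5 rows then had log2 fold changes of -1.19 (Mmgt2), -0.93 (Cyth2), -0.80 (Man1a2), -0.81 (Itga2b) and -1.46 (Zfp60), and all 5 passed (adjusted p from 0.00277 to 0.0416, edgeR). In every setting tried, each of the 5 rows was lower in colorectal cancer.

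**Figure D5:**
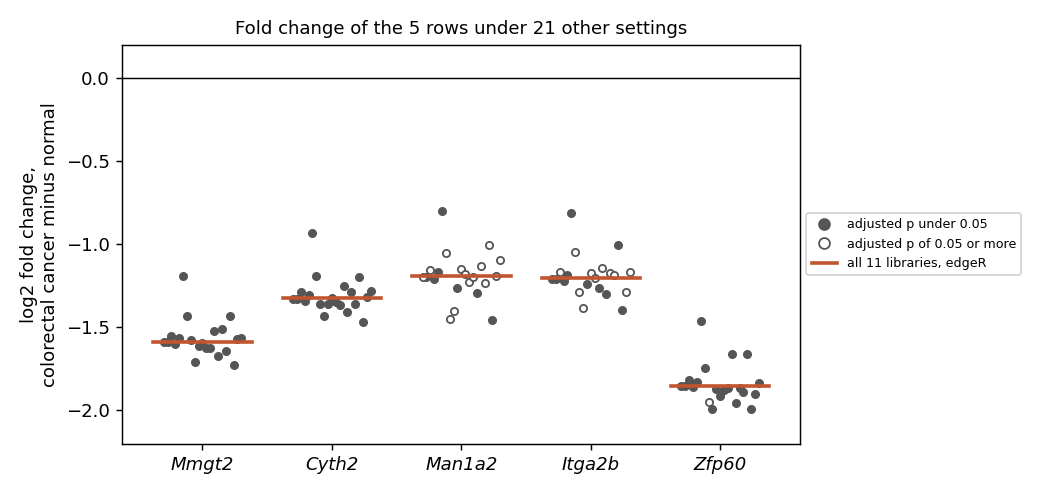
Log2 fold change of each row, colorectal cancer minus normal (vertical axis), under 21 other settings (points; filled where the adjusted p was under 0.05) and with all 11 libraries in edgeR (line). All values are below 0, and open points are found for Man1a2 and Itga2b and once for Zfp60.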

How the data were processed

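Total RNA from mouse serum was sequenced and deposited by the authors as whole-number counts per gene symbol, 1 table per sample, with 0 rows that name no gene. The submitters' processing notes name mm10, Trim Galore, HISAT2 and StringTie. No counting tool, annotation or strand setting was given in the sources used here, so overlapping and antisense genes cannot be told apart, and exons are those of GENCODE M21 (mm10). Totals were 2889205 to 20774889 counts, and intervals and floors cover counting error only. The labels do not say how the replicates were raised, so p-values measure the spread between these samples.

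Counts were tested with edgeR 4.0.16 (R 4.3.3: filterByExpr, TMM factors, robust quasi-likelihood test, group as the only term, Benjamini-Hochberg over 9565 rows at 0.05), a procedure tested on simulated data. CPM are counts per 1000000 of the TMM-scaled library. Single values were tested with exact permutation tests in SciPy 1.17.1. Alternatives were DESeq2 1.42.0 and its size factors, no filter or a mean of 10 CPM, Olfr648 left out or used as a covariate, a replicate block, the repeated file kept, and each library left out. The ratios between rows and to the rows not called were added after seeing the data.

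The rule for named genes took the 5 rows, their paired symbols, 3 neighbours on each side, the 3 most alike rows, and the called or else 2 most abundant members of each list. The members and lists were chosen with earlier results of these data known. RefSeq promoters and an annotation of a later build were not used here.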

Additional observations from a re-analysis of the deposited data

Results flagged for a closer look

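The Zfp60 row of normal replicate 4 stood at 463 CPM, apart from the other 5 normal libraries at 183 to 280.1 CPM. Its gap to the next library was 0.654 of the range of the group, above Dixon's 95% critical value for 6 samples. This was the only such sample in 12 groups looked at, and chance gives about 1 in 20 groups. Without that library the log2 fold change of Zfp60 was -1.66, against -1.85 with it, and the row passed (adjusted p = 0.0106, edgeR). The cause was not tested.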

How the results depend on the processing

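Rows called lower numbered 139, and 238 under DESeq2, 68 with the Olfr648 division as a covariate, 27 in the high-Olfr648 libraries alone and 89 to 139 with single libraries left out (89 without colorectal cancer replicate 4). Mmgt2 and Cyth2 passed in every setting that gave an adjusted p. With libraries left out singly, log2 fold changes were -1.73 to -1.43 (Mmgt2), -1.47 to -1.20 (Cyth2), -1.46 to -1.0 (Man1a2), -1.40 to -1.01 (Itga2b) and -1.99 to -1.66 (Zfp60). Man1a2 passed under DESeq2 (-1.20), a mean of 10 CPM (-1.21), Olfr648 left out with TMM factors (-1.17) or totals alone (-0.80), and the repeated file kept (-1.26). Its mean log2 difference was -1.28 (p = 0.00649, exact permutation), and -1.13 as a ratio to rows not called (p = 0.00433, exact permutation). These p-values were not adjusted over rows, unlike those of the other settings. Itga2b lost its call with no filter (-1.17), the covariate (-1.05) and the high-Olfr648 libraries (-1.29), as did Zfp60 in the last (-1.95). Dhdh turned to 0.38 with totals alone, a setting that moved the median of all rows to 0.42. The other causes were not tested.

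With the replicate number as a block, 59 rows were called lower, and Itga2b, at -1.39, lost its call (adjusted p = 0.0954, edgeR). Dcaf12 and Tmod1 did not pass under it either (adjusted p = 0.0509 and 0.0965, edgeR). Same-numbered libraries correlated at -0.10 to 0.05 over 5 pairs, and 1 library pair was the best match of its number. With so few pairs this cannot show whether the libraries share more than a number.

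Leaving out single libraries gave log2 differences of -0.29 to -0.22 for the Mmgt2 to Cyth2 ratio, 0.41 to 0.60 for Cyth2 to Zfp60 and 0.50 to 0.69 for Itga2b to Zfp60. The calls were lost without 5, 8 and 9 of 11 libraries, where the exact permutation test has fewer splits (adjusted p up to 0.0529, 0.0714 and 0.0794).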
